A study of Mus musculus with 31 samples.

Results

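Gene expression in the nucleus accumbens (NAc), the ventral part of the striatum, was compared with that in the medial prefrontal cortex (mPFC) of DBA2/J (DBA) mice raised under repeated cross-fostering (RCF). Samples were chosen by their titles, which gave 4 arrays of NAc RCF and 4 of mPFC RCF, 8 of the 31 arrays of the series. Arrays mPFC RCF 1 and 3 differed little more than repeated spots of 1 probe within an array (ratio of the 2 spreads 1.53, against 3.46 to 11.4 for the pairs of a group that were not averaged). They were therefore averaged and counted as 1 sample, which left 4 NAc RCF and 3 mPFC RCF samples. All were females used at 12 weeks of age. In RCF, pups passed to another foster dam on each day from postnatal day 1 to day 4 and so had 4 adoptive mothers, and they were weaned on day 28. A cage or litter gave at most 2 animals. Whether a NAc and a mPFC sample came from 1 mouse, and whether samples are single mice, is not given in the sources used here, so p-values measure the spread between these samples only. Control pups, raised by their own dams, were also handled from postnatal day 1 to day 4 and weaned on day 28. They gave 4 NAc and 3 mPFC samples of DBA mice, and RCF C57BL/6J (C57) mice gave 4 NAc and 4 mPFC samples. These groups are used to test whether the region difference itself differs, and their NAc minus mPFC values are given beside some results. The DBA NAc arrays lay on 1 slide and the DBA mPFC arrays on another, so region and slide cannot be told apart in any NAc minus mPFC difference below. RCF and control samples of a DBA region shared their slide.

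The NAc is built mainly of GABAergic projection neurons, which carry dopamine D1 or D2 receptors, signal through cyclic AMP and release GABA together with peptides such as enkephalin, dynorphin and substance P. Cholinergic interneurons are few but supply its acetylcholine. The mPFC is a layered cortex whose principal cells are glutamatergic pyramidal neurons, specified by transcription factors such as Tbr1 and Fezf2, with GABAergic interneurons between them. Both regions belong to the circuit that handles reward and stress, and dopamine neurons of the midbrain project to both.

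Values are the log2 signals of the authors' series matrix, in which every array has its 75th percentile at 11.43. A difference is the mean of NAc RCF minus the mean of mPFC RCF with its standard error from limma, and adjusted p-values are limma's after Benjamini-Hochberg adjustment over 25536 features, with a threshold of 0.05. Where several probes measured a gene, the brightest stands for it. Samples are listed in a fixed order: NAc RCF 1, 2, 3 and 4, then the average of mPFC RCF 1 and 3, mPFC RCF 2 and mPFC RCF 4. Levels are not compared between genes, because probes differ in brightness. Of the 149 genes of the table named here that passed the threshold, 26 lost their call when some single sample was left out (limma adjusted p then 0.0502 to 0.174), and these calls are marked as marginal.

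The strain and region markers of all 7 samples matched their labels, and no marker used here tells RCF from control. Glo1 and Gabra2, 2 genes known to differ between these strains, lay at 13.62 or higher and 11.79 or higher in every one. The highest values in C57 samples were 12.997 for Glo1 and 11.73 for Gabra2, so Gabra2 separated the strains only narrowly. The mean of striatal minus cortical markers was 2.84, 2.51, 1.32 and 1.82 in NAc RCF and −1.16, −1.27 and −1.14 in mPFC RCF. Between 68.9% and 76.4% of probes were well above background on NAc RCF arrays and between 73.6% and 79.7% on mPFC RCF arrays. The median signal over background was 1.57 to 2.07 log2 units in NAc RCF and 2.50 to 2.77 in mPFC RCF, and this gap lies with the slides as with the regions. The NAc RCF samples also differed more among themselves: the median SD of a feature was 0.27 in NAc RCF and 0.12 in mPFC RCF. In bulk tissue, fewer cells of a type and less RNA per cell cannot be told apart.

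The 2 regions differed widely. Of the 25536 features, 8928 (35%) passed the threshold, 3537 (13.9%) higher and 5391 (21.1%) lower in NAc RCF. Every count of list members below stands beside these shares. At least 4-fold differences made up 185 of the higher and 208 of the lower calls. Highest above the mPFC stood a peptide (Nts), a regulator of Notch signalling and adipocyte formation (Dlk1), a chloride channel protein of secretory epithelia (Clic6), a forebrain transcription factor (Six3) and the choline transporter of cholinergic neurons (Slc5a7). Lowest were a hexokinase-domain gene (Hkdc1), a lectin (Clec18a), a matrix protein (Smoc2), a troponin (Tnnc1) and a protein that promotes neurite growth (Nrn1). A test against a minimum difference of 1 log2 unit (limma's treat) kept 235 features (0.92%), 122 higher (0.478%) and 113 lower (0.443%). The samples of the 2 regions did not overlap for 11624 features (45.5%). The counts rest in part on single mPFC samples: without mPFC RCF 1 and 3, 1879 features were higher and 3605 lower, and without mPFC RCF 2, 1808 and 3483.

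**Figure D1:**
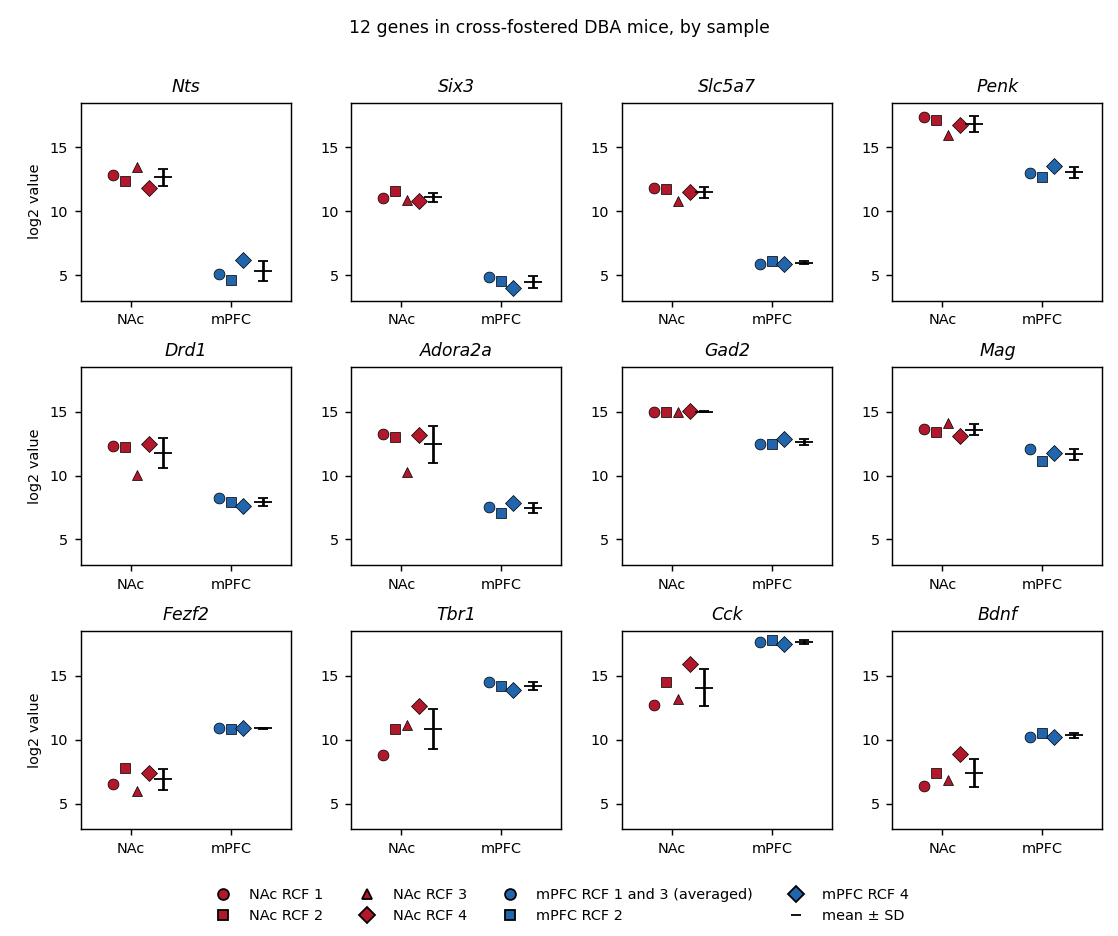
Log2 values of 12 genes in each RCF sample of DBA mice, NAc (red, left) and mPFC (blue, right), with the mean ± SD of each region (n = 4 NAc and 3 mPFC samples) and 1 common vertical scale. The regions do not overlap for any of the 12 genes. Drd1 and Adora2a are low in NAc RCF 3, and Tbr1, Cck and Bdnf are highest in NAc RCF 4 among the NAc samples.

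The highest difference of a named gene in the table belonged to a peptide precursor. Of 11 striatal and ventral forebrain peptide genes in the table, 5 were higher and 1 lower in NAc RCF, beside 13.9% and 21.1% of all features. The median difference of the list was 1.18, and that of all features −0.03. Nts, the precursor of neurotensin, measured 12.85, 12.39, 13.48 and 11.84 in NAc RCF, against 5.08, 4.65 and 6.15 in mPFC RCF. Every NAc sample was thus far above every mPFC sample, with NAc RCF 3 the highest of all, and the difference was 7.35 ± 0.43 (163-fold, limma adjusted p = 6.27e-05). Cartpt, which encodes the feeding and reward peptide CART, stood at 14.15, 13.87, 12.71 and 13.77 in NAc RCF and 8.61, 8.02 and 8.92 in mPFC RCF, a difference of 5.11 ± 0.34 (limma adjusted p = 9.66e-05). Here NAc RCF 3 was the lowest of the NAc samples, still well above the mPFC.

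NAc RCF 3 was also the lowest NAc sample for the 3 peptides of the projection neurons. Penk (enkephalin) was at 17.41, 17.17, 15.97 and 16.72 in NAc RCF and at 12.97, 12.68 and 13.51 in mPFC RCF. Tac1 (substance P) was at 16.41, 16.22, 13.82 and 16.02 in NAc RCF and 12.05, 12.23 and 12.17 in mPFC RCF, and Pdyn (dynorphin) was at 15.46, 15.48, 13.38 and 15.13 in NAc RCF and 12.02, 12.12 and 11.67 in mPFC RCF. The groups did not overlap for any of them, and for Tac1 NAc RCF 3 lay over 2 log2 units under the next NAc sample. Penk differed by 3.76 ± 0.33 (limma adjusted p = 2.82e-04), Tac1 by 3.47 ± 0.54 (limma adjusted p = 0.00179) and Pdyn by 2.93 ± 0.46 (limma adjusted p = 0.00183). Npy, which marks interneurons in both regions, was the 1 member that was lower, at 11.91, 12.05, 10.81 and 11.98 in NAc RCF and 13.25, 12.82 and 12.98 in mPFC RCF (−1.33 ± 0.29, limma adjusted p = 0.00737). The others did not pass. Gal measured 10.61, 10.05, 12.86 and 9.64 in NAc RCF and 9.67, 9.39 and 9.79 in mPFC RCF. Trh measured 9.54, 9.33, 11.41 and 9.37 in NAc RCF and 8.94, 7.96 and 10.28 in mPFC RCF, and Pnoc measured 9.59, 9.82, 11.52 and 9.72 in NAc RCF and 9.61, 9.71 and 9.91 in mPFC RCF. For these 3 peptides, galanin, thyrotropin-releasing hormone and nociceptin, NAc RCF 3 lay above all other samples. Sst differed by −0.27 ± 0.27 and Hcrt by −0.09 ± 0.19.

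Promoters of the 3 peptide genes below are shown because the cyclic AMP response element is the best known control element of neuropeptide genes and these genes differed by over 3 log2 units. Each window runs from 250 bases before to 50 bases after the start of the gene, from RefSeq on build GRCm38.p6, and capitals mark the half-site TGACG on either strand (CGTCA on the strand printed). The half-site occurs in 20.8% and the full site TGACGTCA in 1.79% of 32851 promoter windows of this length, so a match describes the sequence only. Penk is named only.
Nts, chr10:102490369-102490668, minus strand: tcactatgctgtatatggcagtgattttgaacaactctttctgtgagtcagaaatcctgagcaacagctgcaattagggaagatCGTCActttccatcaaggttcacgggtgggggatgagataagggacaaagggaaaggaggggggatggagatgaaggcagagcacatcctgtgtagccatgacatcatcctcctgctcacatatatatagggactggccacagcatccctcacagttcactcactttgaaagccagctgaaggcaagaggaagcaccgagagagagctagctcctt
Cartpt, chr13:99900634-99900933, minus strand: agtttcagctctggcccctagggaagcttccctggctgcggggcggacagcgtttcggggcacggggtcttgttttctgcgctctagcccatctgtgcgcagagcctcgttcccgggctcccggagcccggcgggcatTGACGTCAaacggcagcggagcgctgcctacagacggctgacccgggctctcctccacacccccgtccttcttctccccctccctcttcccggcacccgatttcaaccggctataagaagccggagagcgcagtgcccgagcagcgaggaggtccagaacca
Tac1, chr6:7554811-7555110, plus strand: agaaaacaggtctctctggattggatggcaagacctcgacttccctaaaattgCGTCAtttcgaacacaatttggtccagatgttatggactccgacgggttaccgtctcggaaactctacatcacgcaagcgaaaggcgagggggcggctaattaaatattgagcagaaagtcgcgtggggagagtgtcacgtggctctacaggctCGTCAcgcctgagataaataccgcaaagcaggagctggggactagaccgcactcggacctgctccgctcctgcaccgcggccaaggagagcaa
Nts holds 1 half-site, at position 85 of the window, and Tac1 holds 2, at positions 54 and 208. Cartpt holds the full site at position 139, where the 2 half-sites overlap. Neither of the 2 windows listed for Pdyn holds these letters.

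Signalling genes of striatal projection neurons were higher in NAc RCF as a list. Of 24 in the table, 16 passed as higher and 1 as lower, with a median difference of 1.70. Adora2a, the adenosine receptor of the D2-type neurons, measured 13.26, 12.99, 10.28 and 13.19 in NAc RCF, against 7.50, 7.09 and 7.84 in mPFC RCF. Drd1, the dopamine D1 receptor of the other type, measured 12.27, 12.26, 10.02 and 12.44 in NAc RCF, against 8.24, 7.92 and 7.64 in mPFC RCF. For both, 3 NAc samples lay close together and NAc RCF 3 over 2 log2 units under them, still above every mPFC sample. Adora2a differed by 4.95 ± 0.66 (limma adjusted p = 0.00101) and Drd1 by 3.82 ± 0.53 (limma adjusted p = 0.00119). Rgs9, which shortens G protein signals in striatum, was at 15.45, 15.65, 13.04 and 15.61 in NAc RCF and 10.36, 10.07 and 10.32 in mPFC RCF, a difference of 4.68 ± 0.57 (limma adjusted p = 7.62e-04). Genes of both types of projection neuron were thus among the calls, as were shared signalling proteins: Ppp1r1b, the phosphatase inhibitor DARPP-32, differed by 3.30 ± 0.58, Pde10a by 3.24 ± 0.59, Gng7 by 2.47 ± 0.45 and Adcy5 by 1.61 ± 0.43 (marginal). Arpp19, another phosphatase inhibitor under cyclic AMP control, was the lower member, at 9.74, 9.60, 8.75 and 10.20 in NAc RCF and 10.68, 10.54 and 10.35 in mPFC RCF (−0.95 ± 0.29, limma adjusted p = 0.0338, marginal).

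NAc RCF 3 set the spread of this list. Its mean over the members was 11.62, against 13.17 to 13.27 in the other NAc samples and 10.87 to 10.99 in mPFC RCF. Without NAc RCF 3, 20 members were higher and the median difference was 1.99. In the same sample the oligodendrocyte list had its highest mean (12.63, against 11.83 to 12.27 in the other NAc samples) and Slc17a6, the glutamate transporter of subcortical neurons, its highest value (11.33, against 9.77, 9.38 and 9.39). The part of these in the result was not tested. The D2 and D3 receptor genes lay outside the deposited table of 30067 probes and were read from the scanner files. In that wider set, 4406 of 36763 features were higher (12%) and 10160 lower (27.6%). Drd2 measured 8.27, 8.58, 7.17 and 7.01 in NAc RCF and 5.96, 6.02 and 6.26 in mPFC RCF, and Drd3, the receptor typical of the ventral striatum, 7.22, 7.82, 6.28 and 6.21 in NAc RCF and 4.38, 4.74 and 4.70 in mPFC RCF. The groups did not overlap for either, with differences of 1.68 ± 0.38 and 2.28 ± 0.39 (limma adjusted p = 0.00814 and 0.00246 in the wider set).

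**Figure D2:**
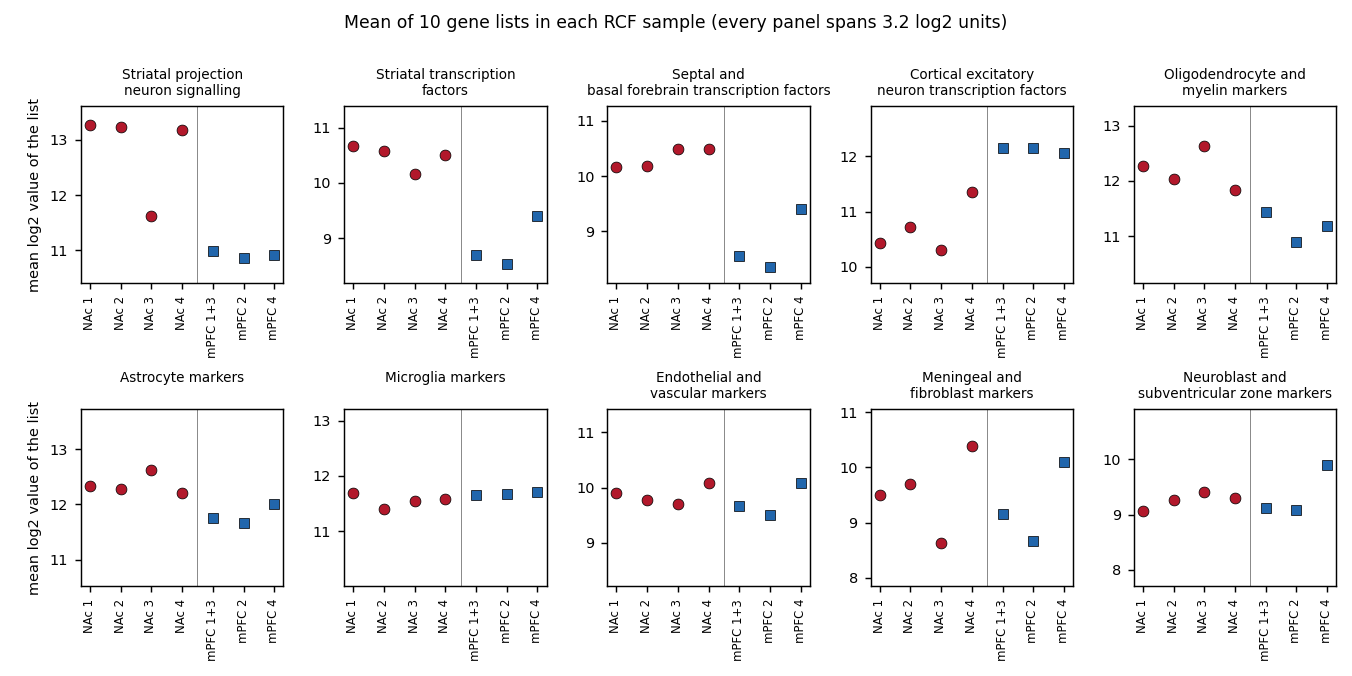
Mean log2 value of 10 gene lists in each RCF sample of DBA mice, NAc (red circles) and mPFC (blue squares), with every panel spanning 3.2 log2 units. NAc RCF 3 is low for striatal projection neuron signalling, NAc RCF 4 is nearest to the mPFC for cortical transcription factors, mPFC RCF 4 is high for neuroblast and meningeal markers, and microglial and endothelial means overlap between the regions.

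Transcription factors of the striatum followed. In the table, 11 of 21 were higher in NAc RCF and the others did not pass, and the median difference was 1.08. Six3, needed for the D2-type neurons, measured 10.99, 11.59, 10.89 and 10.81 in NAc RCF and 4.86, 4.51 and 4.00 in mPFC RCF, and the difference was 6.61 ± 0.26 (98-fold, limma adjusted p = 7.22e-06). Its NAc values stayed within 1 log2 unit of each other, NAc RCF 3 included. Zfp503, a zinc finger repressor of the developing striatum, stood at 9.999, 9.85, 8.91 and 10.03 in NAc RCF and 5.11, 5.42 and 5.81 in mPFC RCF (4.25 ± 0.30, limma adjusted p = 1.19e-04). Foxp2 (3.04 ± 0.34), the retinoid receptors Rarb (2.93 ± 0.46) and Rxrg (2.48 ± 0.34), Zfhx3 (2.08 ± 0.33) and the homeobox genes Pbx3 (2.54 ± 0.55), Dlx6 (2.00 ± 0.32), Dlx5 (1.55 ± 0.33), Meis1 (1.61 ± 0.54, marginal) and Tshz1 (1.05 ± 0.33, marginal) were also higher, with limma adjusted p of 6.06e-04, 0.00177, 0.00115, 0.00194, 0.00757, 0.002, 0.00655, 0.0465 and 0.0365. Isl1, which specifies D1-type and cholinergic neurons and lay outside the deposited table, measured 10.40, 10.11, 9.56 and 10.12 in NAc RCF and 3.94, 4.36 and 3.96 in mPFC RCF (5.96 ± 0.22, limma adjusted p = 8.06e-06 in the wider set).

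Several of the remaining factors were split by single samples. Foxp1 was at 14.02, 14.22, 12.50 and 13.96 in NAc RCF and 13.25, 12.88 and 13.01 in mPFC RCF, with NAc RCF 3 under the mPFC. Sp8 was at 7.01, 6.98, 6.90 and 8.21 in NAc RCF and 7.71, 7.38 and 10.72 in mPFC RCF, with mPFC RCF 4 far above all others. Neither passed (0.63 ± 0.37 and −1.33 ± 0.73). Bcl11b differed by 0.80 ± 0.35, Meis2 by 0.78 ± 0.34, Ebf1 by 0.96 ± 0.34, Sp9 by 1.08 ± 0.43, Dlx2 by 0.68 ± 0.30 and Dlx1 by −0.29 ± 0.36, and none of these passed. Without NAc RCF 3, Foxp1, Bcl11b, Meis2 and Sp9 passed (limma adjusted p = 0.00132, 0.000993, 0.00241 and 0.0392), and without mPFC RCF 4, Dlx2, Ebf1 and Sp9 did (limma adjusted p = 0.00691, 0.0156 and 0.0117). In mPFC RCF 4, Pbx3 and Meis1 also lay over 2 log2 units above the other mPFC samples (11.70 against 9.42 and 8.92, and 9.89 against 7.66 and 7.30), and the mean of the neuroblast and subventricular zone list was 9.90, against 9.12 and 9.08. The part of that list in these results was not tested. Without NAc RCF 3, 14 of the list were higher.

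Retinoic acid genes, which include the receptors Rarb and Rxrg, went both ways. 5 of 13 were higher and 2 lower. Rxrg measured 13.85, 14.09, 12.61 and 13.95 in NAc RCF and 10.74, 11.39 and 11.32 in mPFC RCF, with NAc RCF 3 the lowest of the NAc samples and above the mPFC. Rxra, another retinoid X receptor, was lower (−1.23 ± 0.25, limma adjusted p = 0.00536). Without NAc RCF 4, 4 of the list were higher and 4 lower.

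Several genes of septal and basal forebrain neurons were found in every NAc sample. Zic1, a zinc finger factor of septal and cholinergic development, measured 12.20, 12.12, 12.95 and 12.67 in NAc RCF and 9.41, 9.07 and 10.94 in mPFC RCF, and Zic4 measured 7.89, 7.67, 8.70 and 8.62 in NAc RCF and 5.62, 5.31 and 6.78 in mPFC RCF. NAc RCF 3 and 4 were the highest for both, and mPFC RCF 4 was the highest mPFC sample. The differences were 2.68 ± 0.41 and 2.31 ± 0.39 (limma adjusted p = 0.00169 and 0.00239), although a second, dimmer probe of Zic1 gave 0.25. Lhx6 (0.90 ± 0.11) was also higher, and 4 of 5 of the list passed. Outside the deposited table, Lhx8, which drives cholinergic fate, was at 11.93, 12.27, 13.21 and 10.81 in NAc RCF and well above background on none of the mPFC arrays, which makes it at least 435-fold higher in NAc RCF. By the same bound, Nkx2-1, the factor of the medial ganglionic eminence, was at least 30-fold and Gbx2 at least 20.6-fold higher. The Nkx2-1 probe carried outlier flags on more than 50% of the arrays, and its difference was not tested. NAc RCF 3 was the highest sample for Lhx8, Nkx2-1 and Gbx2. Other members outside the table differed from these. Otp was well above background on 2 mPFC arrays and no NAc array, and at least 1.31-fold higher in mPFC RCF. Sim1 was well above background on 1 mPFC array only, and Zic5 on none of either region. Such bounds set the mean of the region with signal against the lowest signal that counted as above background.

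Cholinergic genes were among the largest differences. Slc5a7, the high-affinity choline transporter, measured 11.79, 11.76, 10.82 and 11.53 in NAc RCF and 5.89, 6.11 and 5.89 in mPFC RCF, a difference of 5.51 ± 0.23 (45.7-fold, limma adjusted p = 1.07e-05). Slc18a3, which loads acetylcholine into vesicles, measured 11.59, 11.78, 10.74 and 10.91 in NAc RCF and 7.27, 7.22 and 7.40 in mPFC RCF (3.96 ± 0.25, limma adjusted p = 8.83e-05). Chat, the enzyme that makes acetylcholine, stood at 11.30, 10.93, 10.17 and 10.10 in NAc RCF and 8.64, 8.63 and 8.48 in mPFC RCF (2.04 ± 0.28, limma adjusted p = 0.00117). The 3 steps of acetylcholine handling were therefore higher in each NAc sample than in any mPFC sample. Among the receptors, the autoreceptor Chrm2 was higher (2.30 ± 0.23) and Chrm3, which couples to Gq, lower (−2.06 ± 0.28, limma adjusted p = 0.00106). In all, 5 of 13 members were higher and 1 was lower. Outside the table, 2 nicotinic receptor subunits went the other way by the bound used above. Chrna5 was at least 3.54-fold and Chrnb3 at least 1.13-fold higher in mPFC RCF, since no NAc array had them well above background. Ngfr, the low-affinity neurotrophin receptor of basal forebrain cholinergic cells, measured 10.74, 11.30, 10.60 and 10.21 in NAc RCF and 7.32, 7.25 and 7.86 in mPFC RCF (3.23 ± 0.26, limma adjusted p = 2.04e-04).

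GABA genes were higher, with a narrow spread. 6 of 7 genes of GABA synthesis, release and uptake passed as higher, and the median difference was 1.21. Gad2, 1 of the 2 glutamate decarboxylases, measured 14.996, 14.95, 14.98 and 15.07 in NAc RCF and 12.46, 12.48 and 12.87 in mPFC RCF (2.40 ± 0.13, limma adjusted p = 5.25e-05). Slc32a1, the vesicular GABA transporter, measured 16.54, 16.57, 16.78 and 16.37 in NAc RCF and 14.59, 14.58 and 14.72 in mPFC RCF (1.93 ± 0.13, limma adjusted p = 9.66e-05). All 4 NAc samples, NAc RCF 3 included, lay within 0.5 log2 units of each other for both genes. Gad1 differed by 1.61 ± 0.24 and Abat, which breaks GABA down, by 1.21 ± 0.12. Gad1 was higher in mPFC RCF 4 (14.20) than in the other mPFC samples (13.10 and 13.16). Of 12 GABA-A receptor subunits, Gabrg1 (1.46 ± 0.22) and Gabra2 (0.74 ± 0.16) were higher and Gabra5 (−0.88 ± 0.15) and Gabra3 (−0.62 ± 0.18, marginal) lower, and 5 were lower without NAc RCF 3. With all samples the subunit shares were 16.7% each way, beside 13.9% higher and 21.1% lower of all features.

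Cortical transcription factors were lower in NAc RCF. 16 of 24 in the table passed as lower and 1 as higher, and the median difference was −1.31. Fezf2, which specifies corticofugal neurons of the deep layers, measured 6.54, 7.77, 5.96 and 7.41 in NAc RCF and 10.94, 10.89 and 10.89 in mPFC RCF (−3.98 ± 0.38, limma adjusted p = 3.72e-04). Tbr1, the layer 6 factor, measured 8.79, 10.82, 11.14 and 12.64 in NAc RCF and 14.55, 14.21 and 13.89 in mPFC RCF (−3.37 ± 0.72, limma adjusted p = 0.00698). Neurod2, of maturing glutamatergic neurons, measured 7.21, 9.45, 7.48 and 11.87 in NAc RCF and 13.09, 12.85 and 12.57 in mPFC RCF (−3.83 ± 0.96, limma adjusted p = 0.0143, marginal). For Tbr1 and Neurod2 the NAc samples covered over 3 log2 units with NAc RCF 4 the highest, yet none reached the mPFC. Bhlhe22 behaved likewise, at 5.49, 6.35, 5.43 and 9.00 in NAc RCF and 9.94, 10.50 and 10.29 in mPFC RCF (−3.68 ± 0.76). Cux1 was the 1 higher member (0.53 ± 0.11, limma adjusted p = 0.00746), though its 3 probes ranged from −0.22 to 0.53.

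Genes outside the deposited table showed the same gradient within the NAc. Slc17a7, the vesicular glutamate transporter of cortical neurons, measured 4.52, 8.34, 4.65 and 10.43 in NAc RCF and 12.86, 12.79 and 13.08 in mPFC RCF (−5.93 ± 1.29, limma adjusted p = 0.00707 in the wider set). Neurod6, a factor of glutamatergic neurons, measured 5.04, 7.81, 4.74 and 9.77 in NAc RCF and 11.95, 11.81 and 11.63 in mPFC RCF (−4.95 ± 1.06). NAc RCF 4 was the highest NAc sample for both and NAc RCF 2 the second highest. The mean of the cortical factor list was 11.35 in NAc RCF 4, against 10.30 to 10.72 in the other NAc samples and 12.06 to 12.16 in mPFC RCF, and the mean of the meningeal and fibroblast list was 10.39 in NAc RCF 4, against 8.64 to 9.70 in the other NAc samples and 8.67 to 10.10 in mPFC RCF. The part of either in these results was not tested. Without NAc RCF 4, 18 of the cortical factors were lower, and the Tbr1 difference was −3.97, that of Neurod2 −4.79.

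Layer markers were mixed. Among 12 upper layer genes, 4 were lower, with Lamp5, a membrane protein of upper layer and interneuron processes, at −1.87 ± 0.32, and 3 were higher, with Mdga1 at 1.68 ± 0.40 (marginal) and Wfs1 at 1.51 ± 0.33. Among 20 deep layer genes, 7 were lower and 3 higher. The higher ones include Foxp2 and Htr2c, which projection neurons of the striatum also express. Deptor, an inhibitor of mTOR and a layer 5 marker, was lower (−1.63 ± 0.24). Of 6 glutamate transporters in the table, Slc1a3, the transporter of astrocytes, was the 1 that passed (0.53 ± 0.14, limma adjusted p = 0.0182, marginal).

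The lowest single differences belonged to genes with diverse roles. Hkdc1, a hexokinase-domain enzyme, measured 6.03, 8.47, 5.75 and 7.13 in NAc RCF and 12.64, 12.79 and 12.64 in mPFC RCF, which is 57.5-fold lower in NAc RCF (−5.85 ± 0.56, limma adjusted p = 3.67e-04). Tnnc1, the calcium-binding troponin of slow muscle, measured 7.03, 7.02, 7.72 and 6.40 in NAc RCF and 11.38, 11.46 and 11.40 in mPFC RCF (−4.37 ± 0.27, limma adjusted p = 6.73e-05). The muscle genes Tcap (−4.06 ± 0.34) and Myl4 (−4.02 ± 0.27) were low as well, as were the matrix protein Smoc2 (−4.67 ± 0.34), the protease Fap (−4.08 ± 0.34), Clec18a (−4.71 ± 0.38), the synaptic protein C1ql3 (−3.88 ± 0.60), the peptide Grp (−3.97 ± 0.48), Nrn1 (−4.19 ± 0.54), Arhgap15 (−3.77 ± 0.69), the anion exchanger Slc26a4 (−3.73 ± 0.68) and the ligand Wnt9a (−3.71 ± 0.67). Arhgap15, Slc26a4, Wnt9a, C1ql3 and Neurod2 did not pass the test against a minimum of 1 log2 unit, whereas the other 10 of the 15 lowest did. The highest genes named here all passed it. Those not yet described are Dlk1 (6.80 ± 0.39), Clic6 (6.73 ± 0.39), Upb1, an enzyme of pyrimidine breakdown (5.17 ± 0.40), the orphan receptor Gpr101 (5.05 ± 0.50), the nucleotide sugar transporter Slc35d3 (5.03 ± 0.78), Serpina9 (4.92 ± 0.68), the endopeptidase Ecel1 (4.77 ± 0.18) and Syndig1l, a striatal membrane protein (4.29 ± 0.54). Ecel1 had the tightest values of these, 14.34, 14.62, 14.85 and 14.08 in NAc RCF and 9.58, 9.82 and 9.71 in mPFC RCF.

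**Figure D3:**
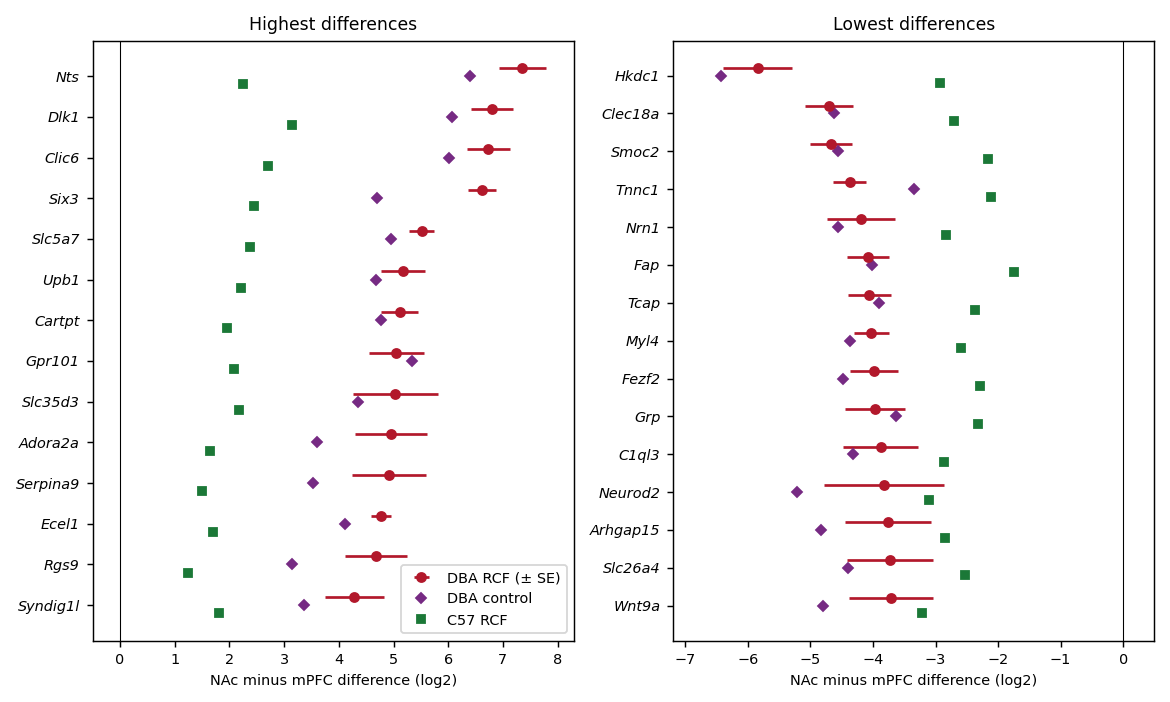
NAc minus mPFC difference (log2) of the 14 highest and 15 lowest genes named here in RCF DBA mice (red circles, bars ± SE), control DBA mice (purple diamonds) and RCF C57 mice (green squares, all 8 samples). All 29 keep their direction in the other pairs of groups, and the C57 values shown lie nearer to 0 in every case. They include C57 NAc RCF 1 and mPFC RCF 1, whose region markers go against their labels. Without these 2, C57 values lie farther from 0 than those of RCF DBA mice for some of the lowest genes. These are Nrn1 (−4.52), C1ql3 (−4.56), Neurod2 (−4.84), Arhgap15 (−4.54), Slc26a4 (−4.13), Wnt9a (−4.86) and Myl4 (−4.17), and the others stay nearer to 0. The control DBA values shown include mPFC 1 and NAc 4, whose strain markers go against their labels. Without those controls, some of the highest genes move above their RCF values, such as Nts (7.67), Clic6 (7.50), Slc5a7 (5.91) and Cartpt (5.41). Others stay below, such as Six3 (5.59) and Adora2a (4.31).

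Among interneuron markers, 5 of 15 were lower and 2 higher. Cck, the precursor of cholecystokinin, which pyramidal cells also make, measured 12.72, 14.53, 13.17 and 15.96 in NAc RCF and 17.66, 17.79 and 17.48 in mPFC RCF (−3.55 ± 0.66, limma adjusted p = 0.00373). Vip, of a cortical class of interneurons, measured 6.47, 7.71, 7.72 and 10.11 in NAc RCF and 11.42, 11.78 and 11.39 in mPFC RCF (−3.52 ± 0.69, limma adjusted p = 0.00475). NAc RCF 4 was the highest NAc sample for both, over 1 log2 unit above the next, and still below the mPFC. Htr3a, the ionotropic serotonin receptor of the same interneuron class, differed by −2.33 ± 0.42. Pvalb (−0.43 ± 0.31) and Sst (−0.27 ± 0.27) did not pass.

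Receptors for peptides went both ways, with 6 of 21 higher and 8 lower. Oprk1, the kappa opioid receptor that binds dynorphin, measured 10.65, 10.02, 9.45 and 10.57 in NAc RCF and 7.36, 7.03 and 6.51 in mPFC RCF (3.21 ± 0.31, limma adjusted p = 3.92e-04). Npy2r, a presynaptic neuropeptide Y receptor, differed by 2.56 ± 0.38. Cckbr, the receptor of cholecystokinin in cortex, measured 10.20, 10.59, 9.87 and 11.44 in NAc RCF and 13.35, 13.32 and 13.27 in mPFC RCF (−2.79 ± 0.31, limma adjusted p = 6.06e-04), and the somatostatin receptor Sstr3 differed by −2.06 ± 0.41. Both the ligand gene Cck and the receptor gene Cckbr were therefore lower in NAc RCF, while the ligand Pdyn and the receptor Oprk1 were higher. Oprm1, the mu opioid receptor, differed by 0.57 ± 0.12 (limma adjusted p = 0.0073). Outside the table, the substance P receptor Tacr1 differed by 3.21 ± 0.29 and the neurokinin B receptor Tacr3 by 4.62 ± 0.45, and the cholecystokinin A receptor Cckar and the galanin receptor Galr1 were at least 9.79-fold and 6.45-fold higher in NAc RCF, since no mPFC array had them well above background.

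Of 9 dopamine genes in the table, for synthesis, transport, breakdown and the receptor Drd5, 3 passed as higher, and 1 without mPFC RCF 1 and 3. Drd4, a receptor outside the table, measured 5.52, 6.09, 4.66 and 6.02 in NAc RCF and 7.42, 7.54 and 7.60 in mPFC RCF and was lower (−1.95 ± 0.33, limma adjusted p = 0.00242 in the wider set). Ddc, the decarboxylase, measured 11.24, 11.40, 11.73 and 10.32 in NAc RCF and 8.99, 8.38 and 9.00 in mPFC RCF (2.38 ± 0.31, limma adjusted p = 9.81e-04), and all NAc samples were above all mPFC samples. The dopamine transporter gene Slc6a3, whose RNA is made in midbrain neurons, was dim in both regions, at 6.46, 6.25, 6.48 and 6.97 in NAc RCF and 5.25, 4.77 and 6.23 in mPFC RCF (1.12 ± 0.33, marginal). Drd5 was higher by 0.74 ± 0.19 (marginal). Th, tyrosine hydroxylase, differed by −0.33 ± 0.35 and did not pass. Serotonin receptors were divided: Htr2c (2.11 ± 0.20) and Htr7 (1.31 ± 0.28) were higher, and Htr3a, Htr2a (−1.16 ± 0.26) and Htr1a (−0.85 ± 0.18) lower, of 7 in the table. Htr2c measured 13.04, 12.98, 12.60 and 13.38 in NAc RCF and 10.57, 11.18 and 10.90 in mPFC RCF, without overlap. Htr4, outside the table, differed by 4.07 ± 0.48. Among 5 adrenergic receptors, Adra2c (1.09 ± 0.35, marginal) was higher and Adrb1 (−1.56 ± 0.28) lower, and Adra1d, outside the table, measured 6.01, 7.28, 6.23 and 7.16 in NAc RCF and 11.00, 10.99 and 11.11 in mPFC RCF (−4.36 ± 0.31).

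Glutamate receptor genes also had members in both directions. Of 16 AMPA and kainate receptor genes, 2 were higher and 4 lower (12.5% and 25%, beside 13.9% and 21.1% of all features). The lowest was Cacng3, an auxiliary subunit of cortical AMPA receptors. It was at 10.10, 10.37, 9.78 and 9.91 in NAc RCF and 11.80, 11.99 and 11.97 in mPFC RCF (−1.89 ± 0.15, limma adjusted p = 2.13e-04). Without mPFC RCF 1 and 3, or without mPFC RCF 2, 2 of the family were lower and none was higher. Of 6 NMDA receptor genes, Grin3b (1.35 ± 0.40, marginal) and Grin3a (0.73 ± 0.17) were higher and the obligatory subunit Grin1 (−0.79 ± 0.17) lower. That is 33.3% higher and 16.7% lower. Grm2, the presynaptic metabotropic receptor, measured 9.19, 8.98, 8.99 and 8.70 in NAc RCF and 10.80, 10.68 and 10.96 in mPFC RCF (−1.85 ± 0.15, limma adjusted p = 2.07e-04). Grm8 (−1.59 ± 0.22) and Grm4 (−1.02 ± 0.22) were also lower, of 7 metabotropic receptors. In all, 3 of the metabotropic receptors were lower (42.9%) and 1 was higher (14.3%).

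Second messenger genes went both ways within families. Among 9 adenylyl cyclases, the striatal Adcy5 measured 13.62, 13.88, 11.86 and 13.68 in NAc RCF and 11.63, 11.70 and 11.63 in mPFC RCF, and the calcium-stimulated Adcy1 measured 11.14, 11.80, 10.90 and 12.85 in NAc RCF and 14.00, 13.67 and 13.93 in mPFC RCF. Adcy5 was higher (1.61 ± 0.43, limma adjusted p = 0.0179, marginal), Adcy1 lower (−2.19 ± 0.40, limma adjusted p = 0.00354), and Adcy2 lower as well (−1.69 ± 0.35). Of 15 phosphodiesterases, 5 were higher and 3 lower. Pde10a, which breaks down cyclic AMP in projection neurons, measured 14.29, 14.22, 11.66 and 14.34 in NAc RCF and 10.34, 10.28 and 10.53 in mPFC RCF (limma adjusted p = 0.00345), Pde1b differed by 1.80 ± 0.40, Pde9a by 1.09 ± 0.25 and Pde7b by 1.55 ± 0.52 (marginal). Without mPFC RCF 2, mPFC RCF 4 or NAc RCF 2, 3 phosphodiesterases were higher, and without mPFC RCF 2 none was lower. Of 16 RGS genes, 6 were higher and 3 lower. Rgs9 stands first, and Rgs6, its relative of the same subfamily, was lower, at 7.38, 7.83, 7.67 and 7.33 in NAc RCF and 9.89, 9.64 and 9.68 in mPFC RCF (−2.18 ± 0.17, limma adjusted p = 1.98e-04). Rgs4, of cortical pyramidal cells, differed by −1.48 ± 0.43 (marginal). NAc RCF 3 was again the lowest NAc sample for Adcy5, Pde10a, Pde1b, Rgs4 and Rgs9.

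**Figure D4:**
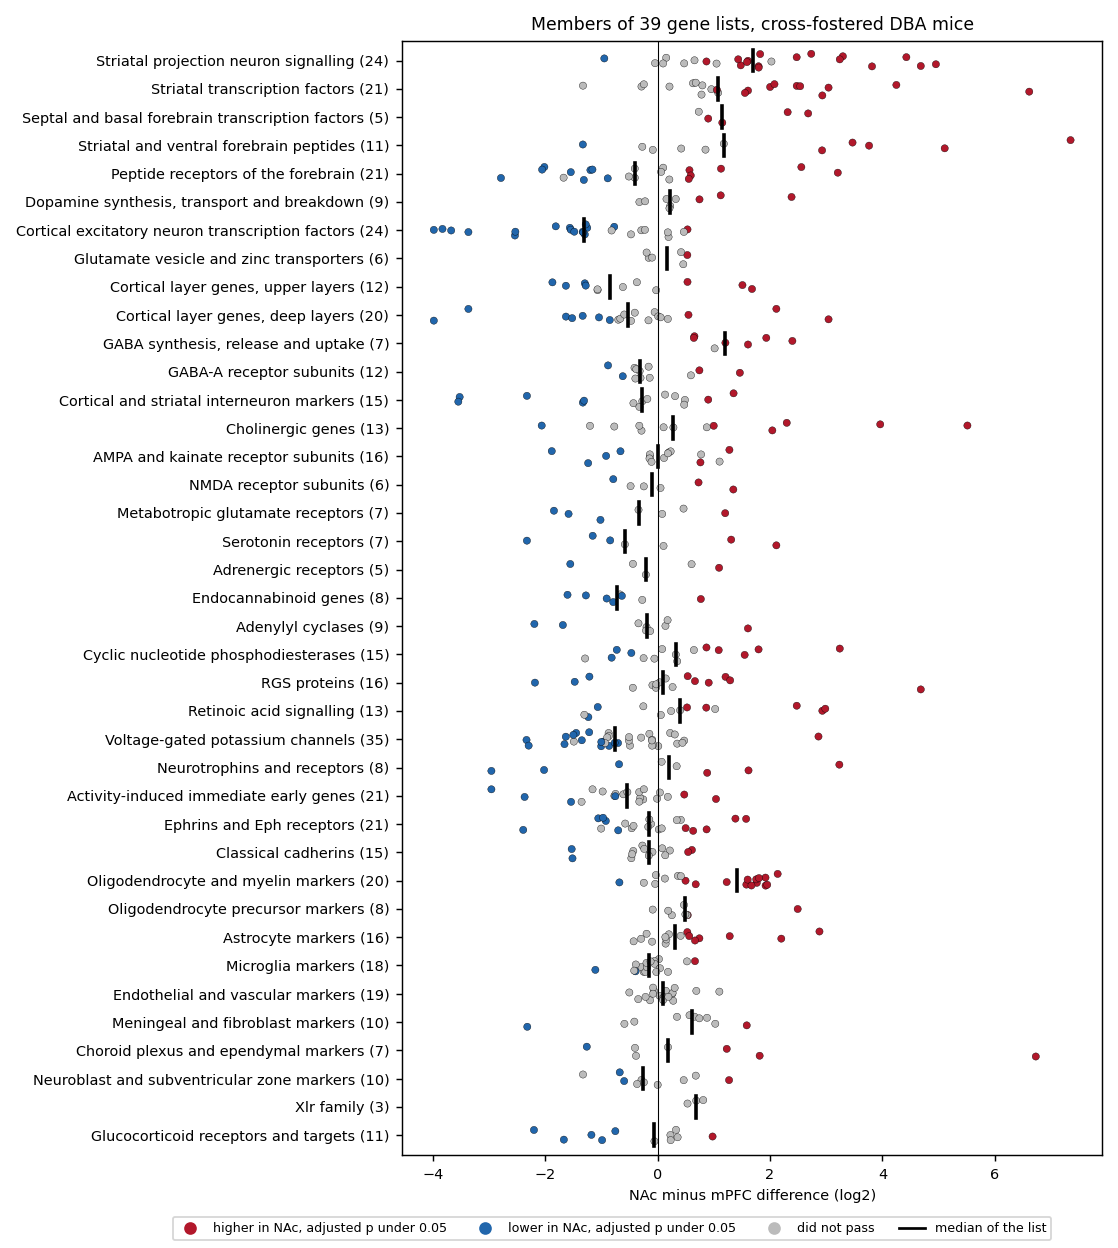
NAc minus mPFC difference (log2) of every member in the table of 39 gene lists (number of members in brackets), coloured by whether it passed as higher (red) or lower (blue) in NAc RCF at a limma adjusted p under 0.05, with the median of each list as a bar. The medians of the striatal, GABA synthesis and myelin lists lie over 1 log2 unit right of 0, and that of the cortical factor list over 1 left of it.

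Endocannabinoid genes were lower in 5 of 8 cases (62.5%, beside 21.1% of all features). Faah, which breaks down anandamide, measured 7.34, 8.29, 8.23 and 8.53 in NAc RCF and 9.72, 9.71 and 9.67 in mPFC RCF (−1.61 ± 0.26, limma adjusted p = 0.00212). Napepld (−1.28 ± 0.16) and Dagla (−0.91 ± 0.15), which make the 2 main endocannabinoids, and the receptor Cnr1 (−0.79 ± 0.22, marginal) were lower too. Cnr2 was higher (0.77 ± 0.14). Of 35 potassium channel genes, 14 were lower and 1 was higher, with a median difference of −0.77. Kcnh7, of the ERG family, measured 5.59, 5.39, 5.71 and 6.22 in NAc RCF and 8.25, 8.01 and 7.93 in mPFC RCF (−2.33 ± 0.22, limma adjusted p = 3.62e-04). The silent subunit Kcnv1 differed by −2.30 ± 0.56 and the G protein-gated Kcnj9 by −1.66 ± 0.20. Kcna5, the higher member, differed by 2.86 ± 0.39, but its second probe gave −0.61. The 2 probes were about equally bright, so which one stands for the gene, and with it the direction, changed with the samples used, and the call was marginal. Without NAc RCF 3, 4 of the channels were higher.

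Neurotrophin genes and their receptors went both ways, with 3 of 8 higher and 3 lower. Bdnf, which cortical neurons make and send to the striatum, measured 6.42, 7.42, 6.86 and 8.88 in NAc RCF and 10.26, 10.55 and 10.25 in mPFC RCF (−2.96 ± 0.49, limma adjusted p = 0.00237). NAc RCF 4 was the highest NAc sample and lay below the mPFC. Ntrk2, the receptor for BDNF, differed by 0.34 ± 0.17 and did not pass. Gfra1 (1.62 ± 0.25) and Ngfr were higher, and Gfra2 (−2.02 ± 0.31), the receptor of neurturin, lower. Gdnf, outside the table, measured 8.91, 9.35, 8.12 and 8.74 in NAc RCF and 1.64, 0.73 and 4.35 in mPFC RCF, where 1 of 4 arrays had it well above background, and no fold is given. Of 21 activity-induced genes, 2 were higher and 4 lower (9.52% and 19.0%, beside 13.9% and 21.1% of all features). Nptx2 (−2.37 ± 0.37), a secreted synaptic pentraxin, and Dusp6 (−1.54 ± 0.19), a phosphatase of ERK, were lower, and Sik1 (1.04 ± 0.18) higher. Fos measured 9.81, 10.22, 8.19 and 8.80 in NAc RCF and 9.34, 9.55 and 9.64 in mPFC RCF, with overlap, and did not pass (−0.26 ± 0.43; 0.10 without NAc RCF 3, the lowest sample).

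Guidance and adhesion genes showed single large members. Of 21 ephrins and Eph receptors, 5 were higher and 5 lower (23.8% each way, beside 13.9% and 21.1% of all features), led by the receptor Ephb6 (−2.39 ± 0.16, limma adjusted p = 1.10e-04) and the ligand Efnb3 (1.57 ± 0.22, limma adjusted p = 0.00127). Without mPFC RCF 4, 3 of them were higher. Ephb6 measured 11.51, 12.15, 11.99 and 11.85 in NAc RCF and 14.41, 14.30 and 14.09 in mPFC RCF. Of 15 cadherins, Cdh12 (−1.53 ± 0.33) and Cdh10 (−1.52 ± 0.28) were lower and Cdh4 (0.61 ± 0.15) and Cdh8 (0.54 ± 0.13) higher, the last 2 marginal. The cadherin shares, 13.3% each way, were no larger than those of all features. Without NAc RCF 4, 5 cadherins were lower, and without mPFC RCF 1 and 3 none was higher. Glucocorticoid genes were lower in 5 and higher in 1 of 11 cases. Zbtb16, a target of the glucocorticoid receptor, measured 9.75, 10.03, 10.05 and 10.59 in NAc RCF and 12.30, 12.39 and 12.24 in mPFC RCF (−2.20 ± 0.18, limma adjusted p = 2.34e-04). Crhbp, which binds corticotropin-releasing hormone, differed by −1.67 ± 0.44 (marginal). Without mPFC RCF 1 and 3, 3 of the list were lower, and without mPFC RCF 2 or mPFC RCF 4, 2. Nr3c2, the mineralocorticoid receptor, was higher (0.98 ± 0.22), and Nr3c1, the glucocorticoid receptor, did not pass (−0.06 ± 0.12).

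Myelin genes were higher in NAc RCF. 13 of 20 oligodendrocyte markers passed as higher and 1 as lower, and the median difference was 1.40. Mag, a glycoprotein of the inner myelin wrap, measured 13.62, 13.39, 14.14 and 13.11 in NAc RCF and 12.04, 11.16 and 11.73 in mPFC RCF (1.92 ± 0.27, limma adjusted p = 0.00118). Opalin measured 10.19, 9.50, 10.35 and 9.26 in NAc RCF and 8.40, 7.35 and 7.32 in mPFC RCF (2.14 ± 0.34, limma adjusted p = 0.002). NAc RCF 3 had the highest value for each, and every NAc sample was above the mPFC. Mobp (1.95 ± 0.38) and Mal (1.92 ± 0.26), proteins of compact myelin, were higher too. Mbp, the basic protein of myelin, was the lower member by its brightest probe (−0.68 ± 0.17), while its 3 probes ranged from −0.68 to 1.04, so its direction depends on the probe, and the call was marginal. Lhfpl3, a marker of oligodendrocyte precursors, measured 11.12, 11.45, 11.68 and 11.20 in NAc RCF and 8.54, 8.59 and 9.48 in mPFC RCF (2.49 ± 0.25, limma adjusted p = 3.92e-04), and Pdgfra, their defining receptor, differed by 0.54 ± 0.14 (marginal). These 2 were the members that passed of 8.

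Astrocyte markers passed as higher in 7 of 16 cases, and the others did not pass. Without mPFC RCF 1 and 3, or without mPFC RCF 2, 3 were higher, and without mPFC RCF 4, 4. Itih3, a hyaluronan-binding protein, measured 13.90, 13.68, 15.28 and 12.74 in NAc RCF and 10.96, 10.99 and 11.12 in mPFC RCF (2.88 ± 0.47, limma adjusted p = 0.00222), and Agt, angiotensinogen, measured 9.54, 9.74, 11.21 and 7.65 in NAc RCF and 7.46, 7.13 and 7.42 in mPFC RCF (2.20 ± 0.66, marginal). NAc RCF 3 was the highest for both. Gfap (−0.43 ± 0.63), Aqp4 (0.14 ± 0.33) and Aldh1l1 (0.15 ± 0.13), the defining markers, did not pass. Of 18 microglia markers 1 was higher (Itgam, 0.66 ± 0.11) and 2 were lower (Olfml3, −1.11 ± 0.17, and C1qc, −0.39 ± 0.13, marginal), with list means of 11.41 to 11.68 in NAc RCF and 11.66 to 11.71 in mPFC RCF. The microglia shares, 5.56% higher and 11.1% lower, lay under those of all features. None of 19 endothelial and vascular markers passed in limma, and 1 (Vwf, 1.10 ± 0.48) had an unadjusted p under 0.05. Without mPFC RCF 4, 2 of them were higher. The list means were 9.71 to 10.08 in NAc RCF and 9.51 to 10.08 in mPFC RCF. Meningeal and fibroblast means were 8.64 to 10.39 in NAc RCF and 8.67 to 10.10 in mPFC RCF, with Dcn (1.59 ± 0.47, marginal) higher and Bgn (−2.32 ± 0.36) lower of 10. Choroid plexus and ependymal markers, 7 in the table, gave Clic6, Ccdc153 (1.82 ± 0.22) and Foxj1 (1.23 ± 0.25) as higher and Enkur (−1.26 ± 0.19) as lower, with means of 7.53 to 8.08 in NAc RCF and 6.54 to 6.96 in mPFC RCF. Outside the table, Otx2, a factor of choroid plexus and midbrain development, measured 8.55, 8.91, 9.68 and 8.92 in NAc RCF and 4.63, 4.46 and 5.02 in mPFC RCF (4.31 ± 0.27, limma adjusted p = 9.21e-05 in the wider set), and Kl, the aging-related protein klotho of the choroid plexus, differed by 2.28 ± 0.32. Ttr, the defining choroid plexus gene, was well above background on 2 of 4 NAc and 2 of 4 mPFC arrays, at 3.23, 3.88, 3.30 and 5.19 in NAc RCF and 4.08, 3.05 and 2.54 in mPFC RCF. Of 10 neuroblast markers, Sox11 (1.27 ± 0.18) was higher and Dcx (−0.68 ± 0.22) and Nes (−0.60 ± 0.17) lower, both marginal.

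Xlr4, an X-linked gene, appears in the title of the series. None of the 3 Xlr members in the table passed in limma, and none had an unadjusted p under 0.05. Xlr4a measured 7.40, 7.63, 7.17 and 6.59 in NAc RCF and 4.88, 7.70 and 6.95 in mPFC RCF. Xlr4b measured 7.85, 8.00, 7.55 and 7.22 in NAc RCF and 5.68, 8.39 and 6.47 in mPFC RCF, and Xlr3b measured 9.30, 9.43, 9.45 and 9.23 in NAc RCF and 8.41, 9.94 and 8.11 in mPFC RCF. The NAc samples were close together, while mPFC RCF 2 lay above all of them and the average of mPFC RCF 1 and 3 below. The differences were 0.69 ± 0.58, 0.81 ± 0.54 and 0.53 ± 0.37 (limma adjusted p = 0.387, 0.274 and 0.298). Without mPFC RCF 2, Xlr4b and Xlr3b passed as higher (limma adjusted p = 0.0125 and 0.00811), and without mPFC RCF 1 and 3 the Xlr4a difference was −0.13. Outside the table, Xlr5a measured 2.97, 3.51, 3.11 and 2.32 in NAc RCF, where 1 of 4 arrays had it well above background, and 5.58, 5.94 and 5.72 in mPFC RCF, where all 4 did, and it was lower (−2.77 ± 0.32, limma adjusted p = 6.68e-04 in the wider set). Probes of this family can share near-identical transcripts, so values of single members are uncertain.

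Whether the region difference depended on RCF was tested within DBA mice, as NAc minus mPFC in RCF less NAc minus mPFC in control mice, a contrast in which both slides appear on both sides. No feature passed (0%) in limma, and 253 (0.991%) had an unadjusted p under 0.05. Among the control samples, mPFC 1 and NAc 4 carried strain markers that went against their labels, mPFC 1 also sex markers, and without them again no feature passed in limma, while 207 had an unadjusted p under 0.05. The 5 named genes with the smallest p all had a limma adjusted p of 1. Ceacam2, a cell adhesion molecule, averaged 7.71 ± 0.34 in NAc RCF and 6.44 ± 0.40 in mPFC RCF (SD), and 7.36 ± 0.14 in control NAc and 7.41 ± 0.25 in control mPFC (SD), so the difference of differences was 1.32 ± 0.31. The same quantity was 0.66 ± 0.21 for the orphan receptor Gpr160, −0.76 ± 0.24 for the X-linked translation factor Eif2s3x, 0.71 ± 0.24 for the endothelial receptor Cd93 and 0.88 ± 0.30 for the inflammatory caspase Casp4. Without the control samples mPFC 1 and NAc 4, these 5 genes gave 1.16, 0.58, −0.59, 0.57 and 0.68, in the same order. The RCF and control pairs of groups shared their 2 slides and no sample. Of the features called in RCF, 99.6% of those higher in NAc RCF had a positive difference in control DBA mice and 99.8% of those lower had a negative one (99.7% and 99.8% without the 2 control samples in doubt). For Nts the difference was 6.40 in control mice, for Drd1 2.69 and for Fezf2 −4.49, with all control samples. Without the 2 control samples in doubt it was 7.67 for Nts and −4.94 for Fezf2.

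The test by strain, NAc minus mPFC in RCF DBA less that in RCF C57 mice, called 2912 features (11.4%), 409 higher and 2503 lower, but each of the 4 groups lay on a slide of its own, so strain, region and slide cannot be told apart in it. The count was 1839 without DBA mPFC RCF 1 and 3, 1600 without DBA mPFC RCF 2, 1331 without DBA mPFC RCF 4 and 1779 after quantile normalization. The replicate number as a block left 0 calls in limma (5115 features at an unadjusted p under 0.05). That setting also averaged samples 1 and 3 in every group, so fewer samples entered it. The split was 675 higher and 1104 lower after quantile normalization and 944 and 2040 with arrays centred on their medians. Among the 4 + 4 C57 samples, NAc RCF 1 and mPFC RCF 1 carried region markers that went against their labels, and without these 2 samples 1815 features passed. The 5 named genes with the smallest p were Olfr1307, Olfr513 and Olfr901, which encode odorant receptors, Ston1, an endocytic adaptor, and Prrg4, a membrane protein with a Gla domain. They gave −2.02 ± 0.20, −2.22 ± 0.24, −3.37 ± 0.43, −2.36 ± 0.28 and −2.08 ± 0.26 (limma adjusted p between 0.00126 and 0.00141). All were dim: Olfr1307, for example, averaged 4.89 ± 0.14 in DBA NAc RCF, 6.58 ± 0.05 in DBA mPFC RCF, 6.48 ± 0.14 in C57 NAc RCF and 6.16 ± 0.19 in C57 mPFC RCF (SD).

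Signal level went with direction. Over 4 equal groups of features from dimmest to brightest, the median NAc minus mPFC difference was −0.30, −0.03, 0.04 and 0.03, the share called lower 34.1%, 22.3%, 14.9% and 13.1%, and the share called higher 9.60%, 15.8%, 17.0% and 13.1%. Of the features called higher in NAc RCF, 88.5% had a positive difference in RCF C57 mice, whose arrays lay on other slides, and of those called lower 55.9% had a negative one, where 58.0% of all features were positive. Called-lower features were negative in C57 mice in 40.9%, 49.9%, 72.2% and 86.3% of cases from the dimmest to the brightest group. Without the 2 C57 samples in doubt these shares were 40.6%, 53.9%, 80.7% and 92.8%. For the features that passed against a minimum of 1 log2 unit, 121 of 122 higher and 97 of 113 lower ones kept their sign in C57 mice. Dim features called lower thus matched the C57 direction least often.

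**Figure D5:**
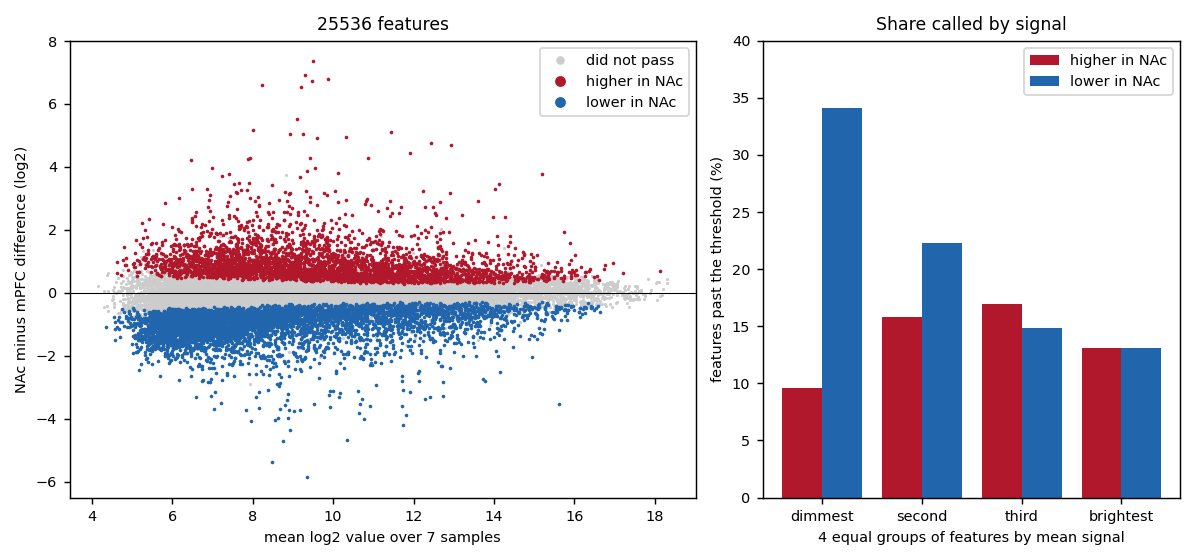
Left, NAc minus mPFC difference (log2) against mean log2 value over 7 samples for 25536 features, coloured by call. Right, share of features called higher (red) and lower (blue) in NAc RCF in 4 equal groups by mean signal, where the share called lower is 34.1% in the dimmest and 13.1% in the brightest group.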

How the data were processed

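RNA of 31 brain samples was hybridised to 1-colour Agilent arrays. The authors deposited a series matrix of 30067 probes on the log2 scale, and the linear intensity in the scanner files was made with Agilent Feature Extraction 10.7.3.1, per the file headers, which name build mm9. From the values, the matrix equals log2 of the processed scanner intensity with every array brought to a 75th percentile of 11.43, over the probes well above background on all 31 arrays (30056 of 30067). For 29 of 31 matrix columns the matching scanner file is listed with another sample, for 27 of them in another group. Matrix columns were therefore used, after both had been seen, and scanner values were read through this match (SD of the differences 0.00776 or less, 0.168 or more for the next best file).

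Near-identical arrays (4 of 45 pairs within groups) were averaged, which left 27 samples, 6 of them with strain, sex or region markers that went against their labels, none of these in the 2 groups compared. Probes were named through RefSeq accessions and symbols (18965 of 30067). The brightest probe per gene was tested with limma 3.58.1 (R 4.3.3) in a fit of the 2 groups with an intensity trend, and the difference tests in fits of 4 groups. An exact permutation test of 4 against 3 samples cannot go below p = 0.0571, so only limma was used. On simulated data of 25536 features, limma recovered 42% of 100 features changed by 1 log2 unit and 91% of 100 changed by 2, with 8 false calls among the unchanged ones. The simulated noise was independent between features and had the same spread in both regions. Far fewer features changed in it than were called here, so these rates need not hold for the real data. Genes outside the matrix come from a wider set, of probes detected above background on 3 or more arrays of a group. Such probes also had to carry outlier flags on at most 50% of the arrays used. Nkx2-1, which met the first condition but not the second, lay outside this set. Ttr, Otp, Sim1 and Zic5 lay outside it as well, and none of these was tested. Genes were named by rule: the 15 highest and 15 lowest called genes without overlap, up to 4 called members per list by size of difference, every member of the striatal factor, peptide and Xlr lists, and the 5 smallest p of each difference test. A few genes that the rule or the lists hold are not reported here. Genes named besides these, as checks or limits or outside the matrix, were chosen after their values were seen. The groups and all lists were chosen with earlier results of these data known. Alternatives changed the scaling, probe filter, background correction (normexp with offset 50), samples, weights and blocks. Leaving out NAc RCF 3 and 4 together, and leaving the samples in doubt out of the fits of 4 groups, were chosen after seeing the data. Python 3.11.15 with numpy 2.4.6, pandas 2.3.3 and matplotlib 3.10.9 was used besides. Array number limits the precision.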

Additional observations from a re-analysis of the deposited data

Results flagged for a closer look

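Among the genes and lists named here, NAc RCF 3 often stood apart from the other 3 NAc RCF samples of DBA mice. Over all probes of the table NAc RCF 4 did so more, with an SD of 0.549 to 0.710 log2 units of its differences from the others, against 0.403 to 0.490 among NAc RCF 1, 2 and 3. By this SD the nearest array of NAc RCF 1, 2 and 3 lay outside their group (0.293, 0.288 and 0.269). Control NAc 1 also had its nearest array at 0.269. Strain and region markers cannot check the treatment label of NAc RCF 3, and that label was not tested. By Dixon's test at its 95% critical value, 28 of 214 gene or list values tested in the 4 NAc samples had 1 sample far from the others (13.1%), where chance gives about 1 in 20. NAc RCF 3 was the lowest in 25 of them and the highest in 2, and NAc RCF 4 the highest in 1. The genes share these 4 samples and are not independent. For signalling genes the log2 values in NAc RCF 3 were Adora2a (10.28, others 12.99 to 13.26), Drd1 (10.02, others 12.26 to 12.44), Rgs9 (13.04, others 15.45 to 15.65), Ppp1r1b (13.63, others 15.88 to 16.14), Pde10a (11.66, others 14.22 to 14.34), Pde1b (13.85, others 15.46 to 15.73), Adcy5 (11.86, others 13.62 to 13.88), Gng7 (12.79, others 14.71 to 14.84) and Rgs4 (11.85, others 13.63 to 13.82). For peptides they were Tac1 (13.82, others 16.02 to 16.41), Pdyn (13.38, others 15.13 to 15.48) and Npy (10.81, others 11.91 to 12.05). For transcription factors they were Foxp1 (12.50, others 13.96 to 14.22), Rarb (11.15, others 13.15 to 13.17), Rxrg (12.61, others 13.85 to 14.09) and Zfp503 (8.91, others 9.85 to 10.03), and for other genes Upb1 (9.14, others 10.48 to 10.74), Slc35d3 (9.09, others 11.68 to 11.84), Serpina9 (9.46, others 12.43 to 12.52), Syndig1l (9.65, others 11.73 to 11.83) and Lamp5 (9.48, others 10.78 to 10.97).

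NAc RCF 3 was the highest sample for Pnoc (11.52, others 9.59 to 9.82) and Trh (11.41, others 9.33 to 9.54), and NAc RCF 4 for Sp8 (8.21, others 6.90 to 7.01). Among list means, NAc RCF 3 was lowest for striatal projection neuron signalling (11.62, others 13.17 to 13.27), RGS proteins (11.79, others 12.18 to 12.25), phosphodiesterases (10.35, others 11.09 to 11.19) and upper layer genes (10.11, others 10.68 to 10.75).

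The NAc minus mPFC difference itself differed between DBA and C57 mice in limma for Olfr1307 (−2.02), Olfr513 (−2.22), Ston1 (−2.36), Prrg4 (−2.08) and Olfr901 (−3.37), as DBA minus C57 on the log2 scale. Strain, region and slide cannot be told apart in this test. With the replicate number as a block none of the 5 passed (limma adjusted p = 0.0921).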

How the results depend on the processing

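Counts of the region difference depended on the setting. With array weights 5547 features were higher in NAc RCF, over the wider probe set 10160 were lower, and without the dimmest 25% of features 3098 were lower, against 3537 higher and 5391 lower as reported. Against a minimum difference of 1 log2 unit 122 were higher and 113 lower. Leaving out 1 sample at a time gave 1808 to 4952 higher and 3483 to 6154 lower features. Quantile normalization, median centring, normexp, every probe on its own, all 8 groups in 1 fit, every array counted and no intensity trend kept both counts within 1.5 times. The strain test gave 1779 calls after quantile normalization, 5112 over the wider set, 790 without the dimmest 25%, 7073 with array weights, 1815 without the samples in doubt and 1331 to 3670 when 1 sample was left out, against 2912. The RCF test gave 0 calls in limma in every setting tried. Same-numbered samples of the 2 regions did not deviate together (r = 0.0973, −0.277 and −0.10), so the numbers are not taken as pairs. With the replicate number as a block, 2691 features were higher and 4463 lower, and the strain test gave 0 calls in limma, with 5115 features at an unadjusted p under 0.05. The causes of these shifts were not tested.

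Of the 149 named genes that passed, 26 lost the call when 1 sample was left out, 22 without mPFC RCF 1 and 3, 20 without mPFC RCF 2, 15 without mPFC RCF 4, 13 without NAc RCF 1, 12 without NAc RCF 2, 2 without NAc RCF 3 and 4 without NAc RCF 4. In the fit of all 8 groups 15 named genes lost the call. Some of these are not marked as marginal above, such as Htr2a and Foxj1 (limma adjusted p = 0.0688 and 0.0644 in that fit). The NAc minus mPFC difference changed sign for Aqp4 (−0.0115 without NAc RCF 3 and 4 together and −0.097 to 0.40 with 1 sample left out), Dlx1 (−0.51 to 0.13 with 1 sample left out), Fos (0.0282 with array weights, 0.50 without NAc RCF 3 and 4 together and −0.58 to 0.0987 with 1 sample left out), Gfap (0.45 with all 8 groups in the fit and −0.95 to 0.34 with 1 sample left out), Hcrt (0.14 after quantile normalization, 0.0362 after normexp correction and −0.19 to 0.0128 with 1 sample left out), Kcna5 (−0.56 with every array counted, −0.37 without NAc RCF 3 and 4 together and −0.73 to 3.25 with 1 sample left out), Nr3c1 (−0.15 to 0.0371 with 1 sample left out), Ntrk2 (−0.63 after normexp correction), Pnoc (−0.0347 without NAc RCF 3 and 4 together and −0.0326 to 0.61 with 1 sample left out), Th (−0.68 to 0.13 with 1 sample left out) and Xlr4a (−0.13 to 1.28 with 1 sample left out). Apart from Kcna5, whose 2 probes exchange places, none of these had passed, and the cause was not tested.

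The deposited scanner files, taken as listed with each sample, gave 0 higher and 0 lower features in limma, with 206 features at an unadjusted p under 0.05, and 0 calls in the strain test, with 707. The columns of the series matrix match other files than those listed for 29 of 31 arrays, and 27 of these belong to another group, so this setting mixes the groups. In it the region difference turned sign for 103 named genes. Differences as listed were Abat −0.0188, Adcy1 0.16, Adcy5 −0.0225, Adrb1 0.29, Agt −0.63, Aldh1l1 −0.15, Arhgap15 0.75, Arpp19 0.0925, Bdnf 0.33, Bhlhe22 0.64, C1qc 0.32, C1ql3 0.49, Cacng3 0.0861, Ccdc153 −0.18, Cck 0.45, Cckbr 0.14, Cdh10 0.26, Cdh12 0.35, Cdh4 −0.0551, Cdh8 −0.17, Chat −0.54, Chrm2 −0.46, Chrm3 0.11, Clic6 −0.15, Cnr1 0.0727, Cnr2 −0.18 and Crhbp 0.34. Further ones were Cux1 −0.092, Dcn −0.36, Dcx 0.19, Ddc −0.0724, Dlk1 −0.29, Dlx1 0.12, Dlx5 −0.0793, Dlx6 −0.0199, Drd5 −0.16, Ebf1 −0.21, Ecel1 −0.22, Enkur 0.0843, Ephb6 0.028, Faah 0.13, Fap 0.28, Foxj1 −0.0284, Gabra2 −0.20, Gabra3 0.11, Gabra5 0.0578, Gad1 −0.0815, Gal −0.15, Gfap 0.0151, Gfra2 0.26, Gpr101 −0.30, Grin3a −0.003, Grin3b −0.23 and Grm4 0.0468. The next were Grm8 0.0913, Hcrt 0.11, Hkdc1 0.12, Htr3a 0.12, Htr7 −0.22, Itih3 −0.47, Kcnh7 0.0183, Kcnv1 0.41, Lhfpl3 −0.12, Lhx6 −0.0851, Mag −0.18, Mdga1 −0.24, Meis1 −0.21, Mobp −0.0513, Myl4 0.42, Napepld 0.13, Neurod2 1.19, Ngfr −0.60, Nptx2 0.14, Npy 0.0221, Npy2r −0.41, Nr3c1 0.0749, Nr3c2 −0.0807, Nrn1 0.34, Ntrk2 −0.0173, Nts −0.19 and Oprm1 −0.0249. The last were Pde7b −0.21, Penk −0.0424, Pnoc −0.16, Six3 −0.0313, Slc17a6 −0.31, Slc18a3 −0.55, Slc26a4 0.42, Slc5a7 −0.37, Smoc2 0.0167, Sp8 0.49, Sp9 −0.0683, Sstr3 0.52, Tbr1 0.50, Tcap 0.13, Trh −0.0185, Vip 0.75, Vwf −0.31, Wfs1 −0.24, Wnt9a 0.40, Xlr3b −0.27, Xlr4a −0.39 and Xlr4b −0.39. The tests of the difference itself turned to Ceacam2 −0.14, Gpr160 −0.19, Cd93 −0.14, Casp4 −0.29, Olfr1307 0.27 and Prrg4 0.20. Array number limits the precision of every value, and dim probes have the least signal over background.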
